A study of Homo sapiens with 19 samples.

Results

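This report follows 10 genes of the peroxide defence of SH-SY5Y cells, a human neuroblastoma line, through RNA-seq and eCLIP libraries made to study G3BP1 and G3BP2. They are PRDX1 to PRDX6, TXN, GPX1, GPX4 and SOD2, and they were chosen by gene name. In the tables of TPM and eCLIP values 9 of them were found by Ensembl ID among 19942 genes, and in the rRNA-depleted table all 10 were found, as 60 of 256980 transcripts. G3BP1 and G3BP2 are RNA-binding proteins on which stress granules (SGs) are built, and sodium arsenite (AS) is a thiol-reactive agent that makes cells form SGs.

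The groups were as follows. siCtrl, siG3BP1 and siG3BP2 were cells given a control siRNA or an siRNA against G3BP1 or G3BP2. Total was the cleared lysate of AS-treated cells, and SG was the SG core fraction pulled from that lysate with an antibody against G3BP1. These 5 libraries are poly-A RNA-seq by the labels, with values in TPM. A further 2 libraries of rRNA-depleted RNA came from untreated and AS-treated cells. Each of these RNA-seq conditions had 1 library, so their differences have no replicate check and carry no p-value. eCLIP of G3BP1 and of G3BP2, in which RNA crosslinked to a protein is precipitated with it and sequenced, was done with and without AS, and each of its 4 groups had 2 libraries. AS was given for 1 h at 500 μM by the label of the AS-treated rRNA-depleted sample, whereas the labels of the poly-A and eCLIP libraries state 50 mM for 1 h, also for untreated and siRNA samples. SH-SY5Y is a single line, and nothing in the labels says that the eCLIP replicates came from separate cultures.

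Peroxiredoxins reduce hydrogen peroxide with a cysteine that is oxidised in the reaction. In several of them thioredoxin (TXN) then reduces the oxidised enzyme and is itself recycled by thioredoxin reductases with NADPH. Glutathione peroxidases do the same work with glutathione, and GPX1 and GPX4 carry selenocysteine, read from a UGA codon, at the reactive position. SOD2, in mitochondria, makes hydrogen peroxide from superoxide and so feeds both systems. Neurons use much oxygen and depend on this defence.

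The coding sequence around the reactive residue shows what sets the enzymes apart. It is printed for 4 members of different chemistry, and for PRDX2 to show how alike the close relatives PRDX1 and PRDX2 are there. Capitals mark the codon of the catalytic cysteine, of both active-site cysteines in TXN, or of selenocysteine. All are coding exons of the canonical transcript on GRCh38, read 5′ to 3′ on the gene's strand.
PRDX1, codon 52, chr1:45515743-45515772, minus strand: ttcacctttgtgTGCcccacggagatcatt
PRDX2, codon 51, chr19:12801005-12801034, minus strand: ttcacttttgtgTGCcccaccgagatcatc
PRDX6, codon 47, chr1:173481357-173481386, plus strand: tttaccccagtgTGCaccacagagcttggc
TXN, first codon 32, chr9:110251376-110251405, minus strand: tcagccacgtggTGTgggcctTGCaaaatg
GPX4, codon 73, chr19:1105391-1105420, plus strand: gtggcctcccagTGAggcaagaccgaagta
In GPX1 (chromosome 3, 49357174 to 49358605, minus strand) the selenocysteine codon is codon 49 and has the same letters, TGA. Between the canonical transcripts of any pair of the 10 genes, the longest run of identical bases was 17 nt, shared by PRDX1 and PRDX4.

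All 9 genes found in the TPM table were abundant. TPM counts reads per length of transcript, so its levels can be compared between genes. In siCtrl, PRDX2 (chromosome 19, 12796820 to 12801800, minus strand), a cytosolic peroxiredoxin common in neurons and red cells, was the highest at 870.3 TPM. GPX4, which reduces lipid peroxides and protects cells from ferroptosis, followed at 703 TPM, then GPX1, the cytosolic glutathione peroxidase, at 700.1 TPM, PRDX5 at 431 TPM and PRDX1 at 311 TPM. PRDX6, TXN and PRDX4 lay at 185, 174 and 107 TPM. PRDX3, the mitochondrial peroxiredoxin, was the lowest at 67.2 TPM, which still ranked it 1748th of the 19942 genes. With 1 library per condition, neighbours in this order such as GPX4 and GPX1 or PRDX6 and TXN cannot be told apart. Nor can fewer cells with an RNA be told apart from less of it per cell in such bulk libraries. Summed, the 9 genes held 0.549% of the listed TPM in siCtrl, 0.570% in siG3BP1, 0.550% in siG3BP2, 0.576% in Total and 0.0926% in SG.

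**Figure D1:**
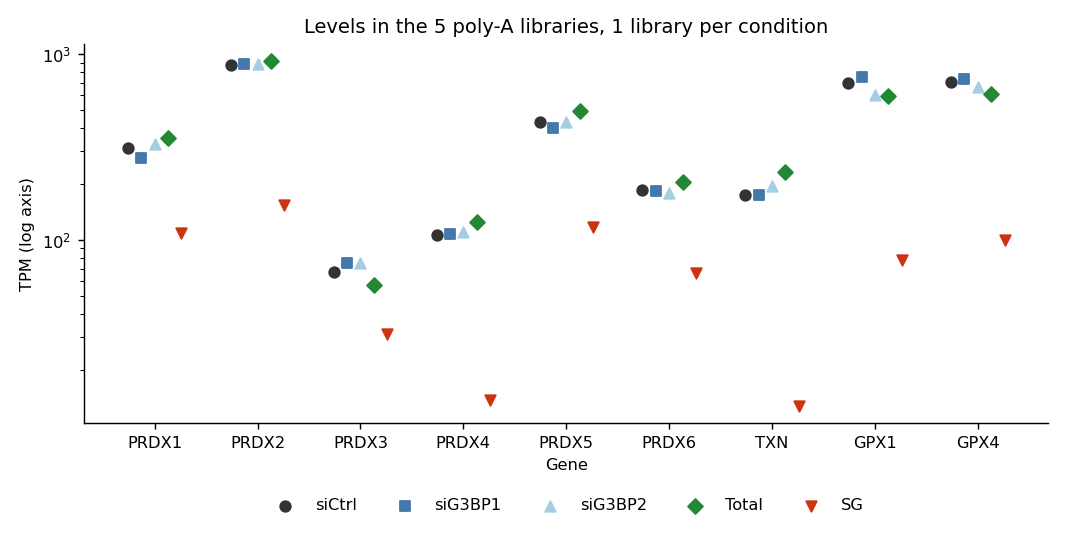
TPM on a log axis of the 9 genes in the 5 poly-A libraries, 1 point per library. The siCtrl, siG3BP1, siG3BP2 and Total points of each gene sit close together, and the SG point is the lowest for every gene, from 12.7 TPM for TXN to 154 TPM for PRDX2.

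The series as a whole had these features. The knockdowns lowered their targets, G3BP1 from 18.7 TPM in siCtrl to 5.996 TPM in siG3BP1 and G3BP2 from 38.1 to 11.4 TPM in siG3BP2. Of 8 adrenergic neuroblastoma markers, 7 were above 1 TPM in each of the 5 libraries, and TH was not. Of 8 markers of other cell types, PTPRC, GFAP, ALB and PECAM1 were listed at 0 in siCtrl, siG3BP1, siG3BP2 and Total. COL1A1, COL1A2 and CD68 were above 1 TPM in each of the 5 libraries, except CD68 in Total at 0.553 TPM. CD68 was at 2.75 TPM in siCtrl and 28.7 TPM in SG. The 8 markers summed to between 11.8 and 22.4 TPM outside SG and to 77.0 TPM in SG, with COL1A1 the highest. The part of such RNA in the SG values was not tested. Depth is unknown for the TPM libraries, whose listed genes summed to between 623955 and 735927 TPM.

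Most RNAs of the peroxide enzymes had a lower level in SG cores than in the lysate. The SG comparison asks which RNAs are held in SG cores of stressed cells, relative to the lysate. A gene was called SG-depleted when (SG + 1)/(Total + 1), in TPM, was below 0.5 with Total above 1 TPM, and SG-enriched when it was above 2 with SG above 1 TPM. Of the 9 genes, 8 were SG-depleted and 0 were SG-enriched, not counting ENSG00000112096, a row that may be SOD2 and was SG-enriched (its values are given with those of SOD2). Of the 13560 genes tested, 9.45% were SG-depleted and 62.9% SG-enriched. The median log2 fold was -2.56 over the 9 genes and 1.51 over all genes tested. Their range, from -4.09 to -0.86, lay below 0 for all 9.

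TXN (chromosome 9, 110243810 to 110256507, minus strand), an electron donor of several peroxiredoxins, had the lowest fold. It was at 233 TPM in Total and at 12.7 TPM in SG, a log2 fold of -4.09, and 0.457% of all genes tested had a lower one. PRDX4, the peroxiredoxin of the endoplasmic reticulum, was at 125 TPM in Total and 13.7 TPM in SG, a log2 fold of -3.09. GPX1 was at 597 and 77.8 TPM with a log2 fold of -2.92, and GPX4 at 612 and 99.9 TPM with a log2 fold of -2.60. The selenoenzymes stood side by side in the order of folds, between PRDX4 and PRDX2.

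PRDX2, at 915 TPM in Total and 154 TPM in SG, had a log2 fold of -2.56. PRDX5, an atypical peroxiredoxin of several compartments, was at 494 TPM in Total and 118 TPM in SG, a log2 fold of -2.06. PRDX1, a cytosolic relative of PRDX2, was at 355 and 108 TPM and had a log2 fold of -1.70. PRDX6, the 1-Cys peroxiredoxin that uses glutathione rather than TXN, was at 204 and 66.0 TPM, a log2 fold of -1.61. PRDX3 (chromosome 10, 119167720 to 119178812, minus strand) was measured at 57.1 TPM in Total but at 31.1 TPM in SG, and its log2 fold of -0.86 gave no call. The close relatives PRDX1 and PRDX2, whose windows are printed above, had ratios of SG to Total of 0.305 and 0.168.

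Across all genes tested, the SG fold moved with transcript length and with abundance, and their part in the folds of the 9 genes was not tested. Over all 13548 genes tested that had an annotated length, the log2 fold rose with the length of the longest transcript, with a Spearman rho of 0.632 as a description across genes, which are not independent replicates. The longest transcripts of the 9 genes measure 737 nt (TXN) to 2277 nt (PRDX3, a retained-intron form), and over these 9 the rho was 0.75. Those of PRDX2 and GPX4, 1717 and 1184 nt, are retained-intron forms too. The log2 fold fell with the TPM in siCtrl over all 13560 genes tested, with a rho of -0.43, and over the 9 genes that rho was -0.13. Among the 2807 genes within that range of lengths, 28.0% were SG-depleted and the median log2 fold was -0.19. Among the 1747 genes at least as abundant in siCtrl as PRDX3, 39.8% were SG-depleted. Where both conditions were met, 59.7% of 730 genes were SG-depleted and the median was -1.32. Within the length range, 1.21% of genes had a lower log2 fold than TXN, 3.67% lower than PRDX4, 4.63% lower than GPX1, 17.1% lower than PRDX6 and 31.6% lower than PRDX3. TXN marks the short end of that range, so it was set beside genes of its own length or longer. With the SG library rescaled so that genes above 1 TPM in both libraries had a median ratio of 1, all 9 genes were SG-depleted, and 3271 genes were SG-depleted against 4505 SG-enriched, where the values as deposited gave 1282 and 8528.

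**Figure D2:**
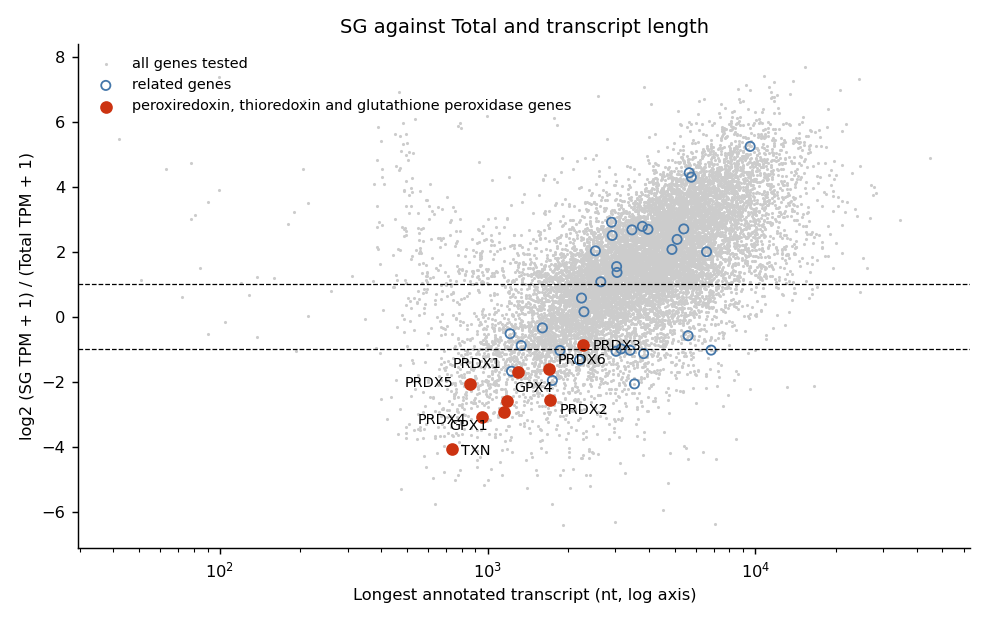
Log2 fold of SG to Total (TPM + 1) against the length of the longest annotated transcript on a log axis, for all genes tested (grey), related genes (open circles) and the 9 genes (red). Dashed lines mark folds of 2 and 0.5. The 9 red points lie at the short end and below 0, and all but PRDX3 lie under the lower line.

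The partners of these enzymes differed from gene to gene in the same comparison. Of 35 related genes of thiol and selenium metabolism, 32 could be tested, of which 16 were SG-enriched, 9 SG-depleted and 7 not called, with a median log2 fold of 0.83. Of the 11 genes listed as thioredoxin partners, 8 were SG-enriched and 1 depleted, beside the 62.9% SG-enriched among all genes tested. That list is broad, and SESN1, SESN2, SESN3 and SRXN1 are among the 8. TXN2, TXNRD2 and TXNL1 had log2 folds of -0.88, -0.99 and -1.03, below 0 like TXN. TXNRD1, the cytosolic reductase that recycles TXN, was at 26.2 TPM in Total and 175 TPM in SG, a log2 fold of 2.696 where that of TXN was -4.09. The longest transcripts measure 3974 nt for TXNRD1 and 737 nt for TXN, and the part of length was not tested. The largest folds of the related genes were those of SESN3 and SESN1, sestrins that act in stress and nutrient sensing, at 5.25 and 4.44 (log2), and of BACH1, a repressor of antioxidant genes, at 4.30. All 3 were below 1 TPM in Total, at 0.763, 0.183 and 0.350 TPM, and at 66.1, 24.7 and 25.6 TPM in SG, so their order depends on the pseudocount and without it SESN1 stood first. All 3 regulators were SG-enriched, among them NFE2L2, the activator of many of these genes, which was at 15.3 TPM in Total and 84.3 TPM in SG.

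The lowest folds of the related genes were those of PSTK, a kinase needed to make selenocysteine, at -2.07, of SOD1, the cytosolic superoxide dismutase, at -1.96, and of GPX7, a peroxidase of the endoplasmic reticulum, at -1.68. Of 10 glutathione enzymes tested, 3 were SG-enriched and 5 depleted, with a median of -0.81. Of the other superoxide and peroxide enzymes, 1 of 3 was depleted and 0 enriched. Of the 5 genes of selenocysteine incorporation, 2 were enriched and 2 depleted. Under the rescaling described above, 9 related genes were SG-enriched and 15 SG-depleted.

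**Figure D3:**
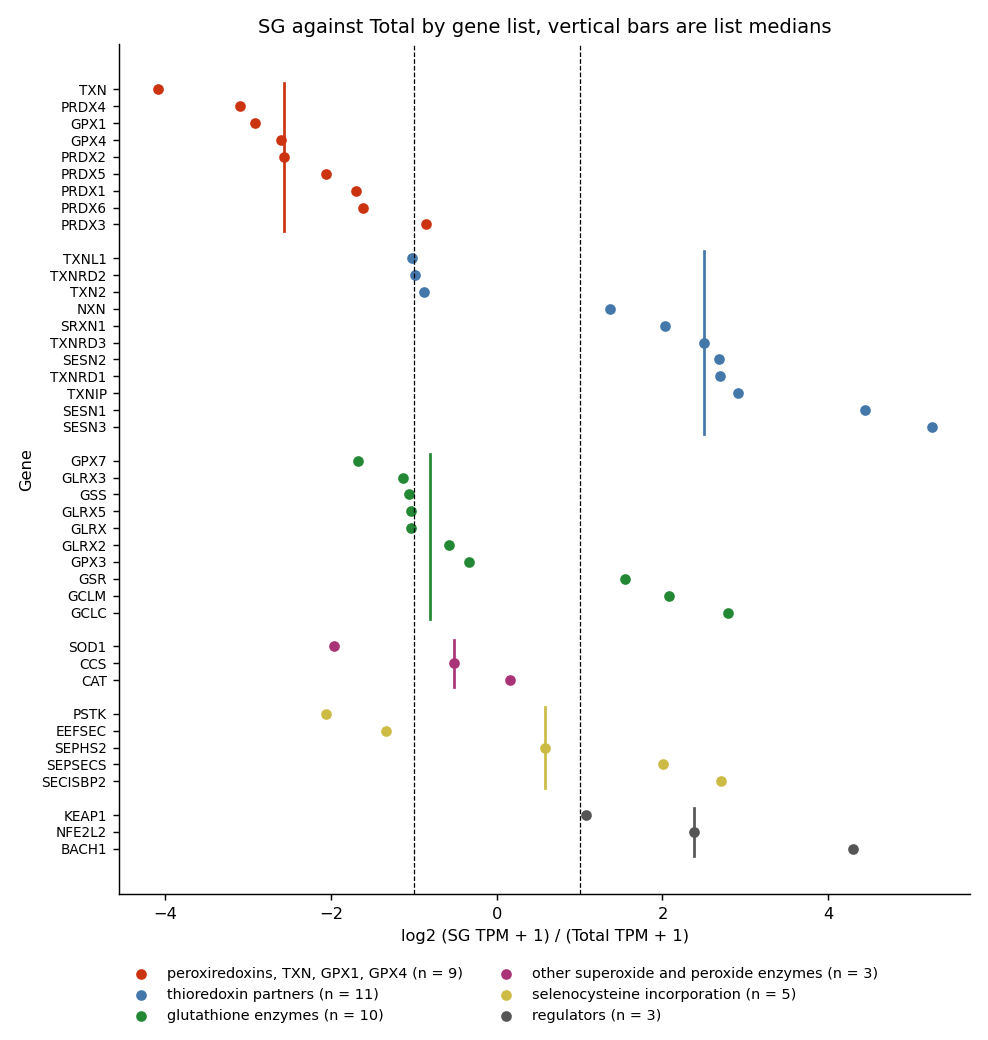
Log2 fold of SG to Total (TPM + 1) for the 9 genes and the 32 related genes tested, 1 row per gene, grouped by list, with the median of each list as a vertical bar and folds of 2 and 0.5 as dashed lines. All 9 genes of the first group lie left of 0, while 8 of the 11 thioredoxin partners and all 3 regulators lie right of the upper line.

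In the knockdown libraries the enzymes' RNAs stayed within a narrow range of their siCtrl levels. The comparison of each knockdown with siCtrl asks which RNAs depend on either protein. Calls needed a fold of TPM + 1 above 2 or below 0.5 and more than 1 TPM in the higher library. In siG3BP1, 0 of the 9 genes were called, where 3.10% of the 12280 genes tested were. In siG3BP2 it was again 0 of 9, where 4.11% of 12229 genes were called. The log2 folds ran from -0.18 for PRDX1 to 0.16 for PRDX3 in siG3BP1, and from -0.22 for GPX1 to 0.16 for TXN in siG3BP2. PRDX1 stood at 311, 274 and 328 TPM in siCtrl, siG3BP1 and siG3BP2. GPX1 stood at 700.1, 752 and 601 TPM, higher in siG3BP1 and lower in siG3BP2 than in siCtrl. PRDX2 varied least, with 870.3, 886 and 885 TPM.

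The other genes lay in the same narrow range. TXN was at 174, 173 and 195 TPM, PRDX4 at 107, 108 and 109.8 TPM, and PRDX6 at 185, 184 and 178 TPM. GPX4 was at 703, 731 and 668 TPM, PRDX5 at 431, 398 and 430.2 TPM, and PRDX3 at 67.2, 74.9 and 74.8 TPM. Each sequence is siCtrl, siG3BP1 and siG3BP2, and both knockdowns share the siCtrl library. The median log2 fold over the 9 genes was 0.02 in siG3BP1 and 0.02 in siG3BP2, beside medians over all genes tested of -0.08 and -0.12.

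Of the 32 related genes tested, 1 was called in siG3BP1 and 2 in siG3BP2. TXNRD2, the mitochondrial thioredoxin reductase, was called higher in both, at 6.05 TPM in siCtrl, 20.2 TPM in siG3BP1 and 20.8 TPM in siG3BP2. It was also called higher in Total, at 15.6 TPM, so siCtrl was the low library among these 4. EEFSEC, the elongation factor that delivers selenocysteine, was called lower in siG3BP2, at 14.5 TPM in siCtrl and 6.62 TPM in siG3BP2, whereas the selenoenzymes GPX1 and GPX4 were not called.

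Total was set beside siCtrl as the nearest available pair of stressed and unstressed poly-A libraries, although they also differ in siRNA and in lysis. Here 0 of the 9 genes were called, where 20.9% of 12173 genes were, mostly lower in Total. The log2 folds of the 9 genes ran from -0.23 for PRDX3 to 0.41 for TXN, with a median of 0.14 beside -0.41 over all genes. Relative to a median ratio of 1 over genes above 1 TPM in both libraries, all 9 were higher in Total, by 0.18 (PRDX3 and GPX1) to 0.83 (TXN) on the log2 scale, and 445 genes were then called higher and 1317 lower, against 156 and 2387 without the rescaling. TXN was at 174 TPM in siCtrl and 233 TPM in Total, and PRDX4 at 107 and 125 TPM. GPX1, GPX4 and PRDX3 had a lower TPM in Total than in siCtrl. Among the related genes, TXNRD2 was called higher, and SESN1, BACH1 and SRXN1 were called lower, with log2 folds of 1.23, -3.46, -1.27 and -1.03. In the rRNA-depleted libraries, described next, none of these 4 genes was called. Their ratios of AS to untreated values were 0.781, 1.24, 1.22 and 1.43. The median ratio of genes above 1 in both of those libraries was 1.20. SESN1 and BACH1 lay near that median, TXNRD2 below it and SRXN1 above it.

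The 5 genes whose 4 log2 folds lay nearest to the median profile of the 9 genes, by Euclidean distance among 10737 genes above 10 TPM in at least 1 library, were ENSG00000285641, MPC2, CENPX, NEDD8 and JTB, at distances of 0.0724 to 0.109. PRDX2 itself was at 0.0684 from that median, and TXN and PRDX3 were the farthest members, at 1.56 and 1.76. The median folds of siG3BP2 to siCtrl and of SG to Total are those of PRDX2. Its closeness therefore follows in part from how the profile was made.

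In rRNA-depleted RNA none of the 10 genes passed the fold rule after 1 h of AS. These libraries ask which RNAs change in level in whole AS-treated cells. The values of all transcripts of a gene were summed, and a call needed a fold of the value + 1 above 2 or below 0.5. Of the 10 genes 0 were called, where 5.36% of 16457 genes were. The median ratio of AS to untreated values over all genes above 1 in both libraries was 1.20 (0.27 on the log2 scale), and that over the 10 genes was 1.16. Of the 10, 4 had a ratio above the median of all genes, namely PRDX6 at 1.34, PRDX4 at 1.33, PRDX1 at 1.27 and PRDX3 at 1.21. The lowest were GPX4 and PRDX2, both at 1.12.

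Per transcript the depth can be recovered, because each value is a whole number of reads divided by the transcript's length and scaled. PRDX2-201 held 1510 reads in untreated cells (95% exact Poisson interval 1435 to 1588) and 1431 reads in AS-treated cells (1358 to 1507). Its ratio of values was 1.12 (95% interval 1.04 to 1.20, from the exact binomial split of the reads, counting error only), just under the median ratio of all genes. PRDX6-201 held 704 and 777 reads and had a ratio of 1.30 (1.17 to 1.44). PRDX1-202 held 655 and 727 reads and had a ratio of 1.31 (1.18 to 1.46). The intervals of both include the median ratio of all genes, 1.20, as did those of 9 of the 10 leading transcripts.

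The remaining leading transcripts had fewer reads. GPX4-210 had 523 and 501 reads and a ratio of 1.13 (0.996 to 1.28), and GPX1-202 had 510 and 482 reads and a ratio of 1.11 (0.981 to 1.26). PRDX3-201 had 301 and 344 reads and a ratio of 1.35 (1.15 to 1.58). For PRDX5-202, at 272 and 264 reads, the ratio was 1.14 (0.962 to 1.36), and for TXN-202, at 271 and 253 reads, it was 1.0999 (0.923 to 1.31). PRDX4-202 had 111 and 124 reads with a ratio of 1.32 (1.01 to 1.72). None of the 60 transcripts was called, and 7 had a lower value with AS than without. As value times transcript length, 1 read stood for 88.6 with AS and 75.2 without. A transcript with somewhat fewer reads in AS, such as PRDX2-201, could therefore have a higher value there.

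**Figure D4:**
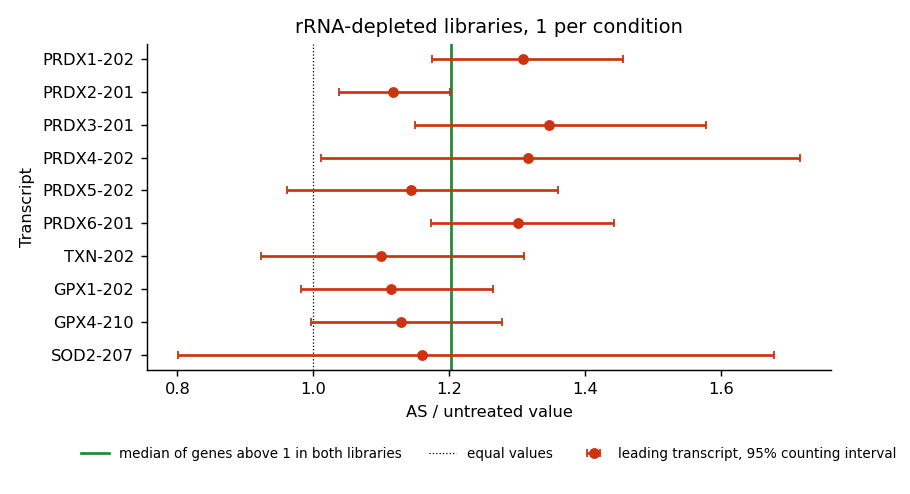
Ratio of AS to untreated value for the transcript of each gene with the highest summed value, with 95% counting intervals (horizontal bars), 1 library per condition. The green line is the median ratio of all genes above 1 in both libraries, 1.20, and it falls within every interval but that of PRDX2-201.

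SOD2 (chromosome 6, 159669069 to 159762529, minus strand) could be followed by name only in these 2 libraries. Its 15 transcripts summed to 59.8 without and 69.3 with AS, a ratio of 1.16. The leading one, the retained-intron transcript SOD2-207, held 62 and 61 reads and had a ratio of 1.16 (0.801 to 1.68). Because a read was counted in each transcript it overlaps, such sums weigh genes with many transcripts more than others. The TPM and eCLIP tables hold a row, ENSG00000112096, whose ID has no entry in GENCODE 44 and which may be SOD2 under an earlier ID. That row was at 4.47 TPM in siCtrl, 4.42 TPM in siG3BP1, 4.83 TPM in siG3BP2, 4.04 TPM in Total and 20.2 TPM in SG. Its log2 fold of SG to Total was 2.07, which passed the rule for SG-enriched and is opposite in direction to the folds of the 9 genes. Its eCLIP numbers were 274 to 1379 over the 8 libraries. With the identity of that row open, it entered no count here.

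Annotated pseudogene copies of the 10 genes took few reads. The 21 copies listed summed to 2.25 in untreated cells, and the highest, a copy of PRDX2, was at 1.02 where PRDX2-201 was at 123. The largest copy relative to its parent, 3.38% of the leading transcript, was one of PRDX3. Of the 32 related genes tested in these libraries 0 were called higher and 1, EEFSEC, was called lower, at 2.16 and 0.409, and NFE2L2 had a ratio of 1.87 without a call. The letters TGACNNNGC, the core of the antioxidant response element to which the NFE2L2 protein binds, were searched on both strands in the 250 bases before the start of 14 RefSeq promoters (GRCh38.p14) of 8 of the genes. None held them, where 10.9% of 35116 promoters did.

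In eCLIP, the RNAs of the 9 genes gave small numbers with either protein, and their duplicates often differed. ENSG00000112096, the row that may be SOD2, is not among the 9 and had larger numbers, 274 to 1379. The deposited values are logarithms to base 10 of whole numbers to which 1 was added, and this number per gene, not divided by length, summed to between 4268911 and 26179736 per library. The 9 genes together held 13.1 to 20.1 parts per 1000000 (ppm) of that sum. In every group replicate 2 had the smaller total. PRDX1 (chromosome 1, 45510914 to 45542732, minus strand) had numbers of 90 and 23 with G3BP1 in untreated cells and of 194 and 4 in AS-treated cells, in the order replicate 1 and replicate 2. With G3BP2 it had 104 and 109 without AS and 208 and 33 with it. PRDX4 (chromosome X, 23664262 to 23686397, plus strand) followed with 84 and 28, then 173 and 2 with G3BP1, and with 58 and 30, then 190 and 21 with G3BP2. As numbers, the AS values of both genes span those of untreated cells. Relative to the library sum they do so with G3BP1 but not with G3BP2, where PRDX1 was at 3.97 and 10.2 ppm without AS and 7.98 and 4.31 ppm with it, and PRDX4 at 2.22 and 2.81 ppm without AS and 7.29 and 2.74 ppm with it.

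PRDX6 (chromosome 1, 173477330 to 173488815, plus strand) was the one gene whose AS libraries lay above the untreated ones, relative to the library sum, with both proteins, of 7 that could be compared in both, where 3.98% of 18773 genes did so. The libraries of the 2 proteins are not independent, since the deviations of equally numbered ones correlated across genes at 0.44 and 0.55 within a treatment. Its numbers with G3BP1 were 14 and 2 without AS and 29 and 7 with it, or 0.584 and 0.295 against 1.28 and 1.64 ppm. With G3BP2 they were 12 and 0 against 57 and 32, or 0.458 and 0 against 2.19 and 4.18 ppm. On the log10 scale as deposited PRDX6 was higher by 0.36 ± 0.60 (SE) with G3BP1 and by 1.08 ± 0.43 with G3BP2, and in the limma fit over all genes neither was called, with an adjusted p of 1.00 for both (the unadjusted p with G3BP2 was 0.0122).

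Many of the other numbers were 0, but GPX4 was above PRDX1 and PRDX4 in replicate 1 of untreated G3BP1. GPX4 had 114 and 16 with G3BP1 and 97 and 16 with G3BP2 in untreated cells, and 8 and 44 with G3BP1 and 0 and 57 with G3BP2 in AS-treated cells. TXN had 58 and 0, 50 and 4, 19 and 0, and 20 and 0 in the same order of groups. GPX1 had 0 and 18, 0 and 26, 13 and 0, and 8 and 0. For GPX1 and GPX4 the libraries of the 2 proteins with the same treatment and replicate number were alike, and replicates 1 and 2 of each group were not.

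PRDX2, the most abundant of the 9 genes in siCtrl, had numbers of 6 and 0 with G3BP1 and 0 and 0 with G3BP2 in untreated cells, and of 18 and 8 and 18 and 0 in AS-treated cells. PRDX3 ranged from 2 to 10 over the 8 libraries. PRDX5 had 15 and 21 in replicate 1 of untreated cells for the 2 proteins and 0 in the other 6 libraries. A value above 0 in both libraries of all 4 groups was found for PRDX1, PRDX3 and PRDX4, 3 of the 9 genes, and for 82.6% of all genes.

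**Figure D5:**
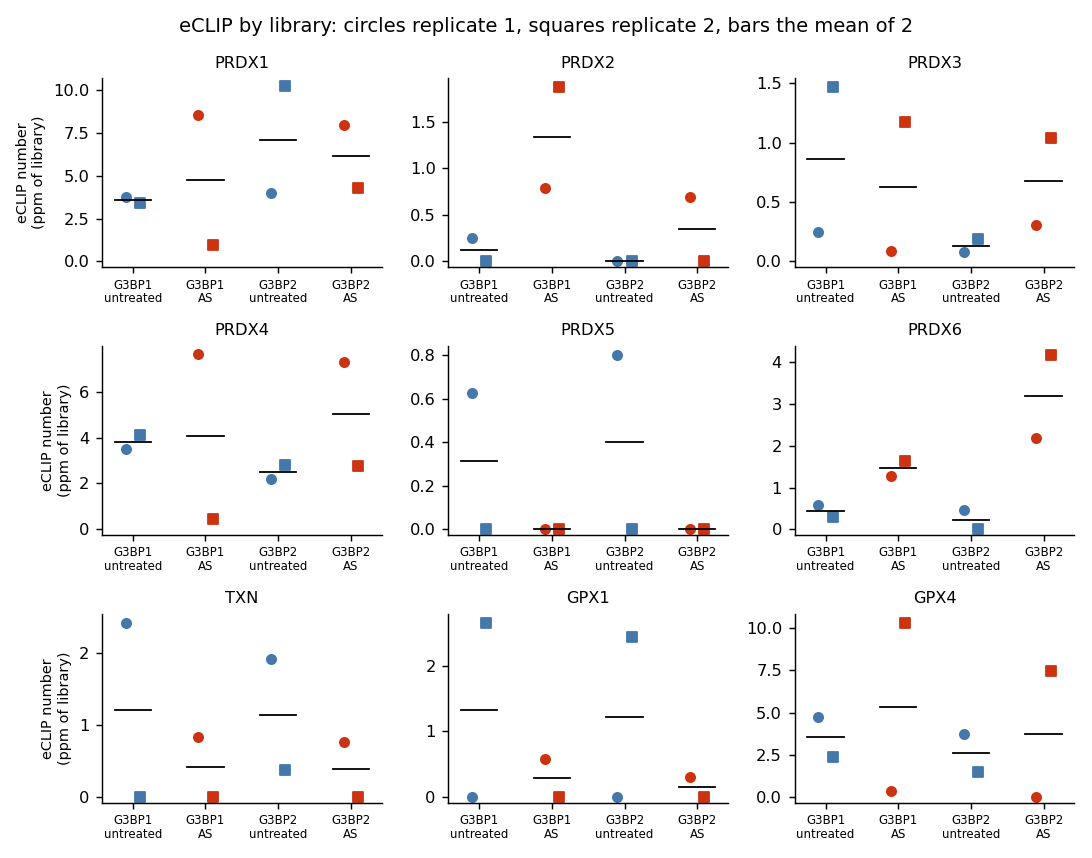
eCLIP number in ppm of the library's sum for the 9 genes (each panel has its own axis from 0), with untreated libraries in blue and AS libraries in red, replicate 1 as a circle, replicate 2 as a square and the mean of the 2 as a bar. PRDX6 has both AS points above both untreated points with each protein. In some groups the replicates of PRDX1, PRDX4, GPX1 and GPX4 lie far apart, while the untreated G3BP1 replicates of PRDX1 and PRDX4 lie close together.

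The comparison of AS-treated with untreated libraries asks whether stress changes what each protein is bound to. limma, fitted with a trend of the variance on intensity and adjusted by Benjamini-Hochberg, called 0 of the 8 genes tested for G3BP1, where 0% of 18888 genes were called, and 0 of 7 for G3BP2, where 0.0105% of 19035 genes were called. PRDX5 fell outside the first fit, and PRDX2 and PRDX5 outside the second, for having fewer than 2 of the 4 libraries above 0. At an unadjusted p under 0.05 these counts were 0 for G3BP1 and 1, PRDX6, for G3BP2. The interaction of treatment and protein called 0 of 9 (0% of 19259 genes), and the difference between G3BP2 and G3BP1 called 0 of 9 (0% of 19259 genes), with 0 of 9 at an unadjusted p under 0.05 in each. The smallest adjusted p among the 9 genes was 0.955. With the replicate number as a block the counts at an unadjusted p under 0.05 were 1 for G3BP1 (PRDX2), 2 for G3BP2 (PRDX6 and TXN), 1 for the interaction (PRDX3) and 0 for the difference between the proteins, and 0 genes of the 9 were called. The standard errors include the differences between library totals. On simulated data with totals as unequal as those of the G3BP1 libraries, this fit recovered almost none of the changed genes, so the counts of 0 say little about whether these genes changed.

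Relative to the library sum, without a test, AS and untreated libraries did not overlap for 2 of the 8 genes with G3BP1, PRDX6 and PRDX2, both higher in AS, where 13.3% of all genes were higher and 14.5% lower without overlap. With G3BP2 they did not overlap for 2 of 7, PRDX6 and PRDX3, both higher in AS, where 14.7% of all genes were higher and 15.6% lower. PRDX3 had 0.0764 and 0.187 ppm without AS and 0.307 and 1.04 ppm with AS in the G3BP2 libraries.

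Relative to the span of the gene, most of the 9 genes had low numbers and GPX4 did not. Per kb of the gene's span, introns included, the median over the 9 genes lay between 0.0294 and 0.139 ppm in the 8 libraries, and the median over all genes between 0.389 and 0.416. In each library 0 to 2 of the 9 genes lay above the median of all genes, and these were GPX4 in 6 libraries and GPX1 in 2. GPX1 and GPX4 have the shortest spans of the 10 genes, 1432 and 2810 bases, beside 31819 for PRDX1. Their canonical transcripts measure 899 and 851 nt, and that of PRDX1 945 nt. The part of the span in these values was not tested. GPX4 stood at 1.69 and 0.839 ppm per kb with G3BP1 and 1.32 and 0.533 with G3BP2 in untreated cells, and at 0.126 and 3.67 with G3BP1 and 0 and 2.65 with G3BP2 in AS-treated cells. GPX1 stood at 1.85 with G3BP1 and 1.70 with G3BP2 in replicate 2 of untreated cells and was below the median in the other libraries. The palindrome examined in the study, CCAGCCTGG or its reverse complement CCAGGCTGG, was found in the span of 9 of the 10 genes and in 87.4% of all genes, or 88.0% of those whose span lies within the range of the 10. PRDX1 had 40 such sequences in 31819 bases and PRDX4 18 in 22136 bases. PRDX6 had 3 in 11486 bases, TXN 8 in 12698 bases, PRDX2 7 in 4981 bases and GPX1 0 in 1432 bases. A match of letters is a description and not a binding site, and the position of eCLIP reads in these genes was not analysed here.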

How the data were processed

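The study measured RNA in SH-SY5Y cells by RNA-seq and G3BP eCLIP. For the poly-A libraries the authors aligned reads to GRCh38 with HISAT2 (2.1.0 by the submitters' notes) and estimated TPM with StringTie and a GENCODE annotation, and deposited 1 TPM value per protein-coding gene. For the rRNA-depleted libraries the authors deposited a signal per transcript under a TPM header. For eCLIP the authors used fastp, STAR and CLIPper with an SMInput control and deposited log10 values per gene, each log10 of a whole number plus 1 within rounding. Which steps that number includes is not given in the sources used here. SMInput was not analysed here.

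The 10 genes and the related lists were chosen with earlier results of these data known. Ensembl IDs of 19910 of the 19942 rows were found in GENCODE 44 (GRCh38), and 91.1% of transcripts by ID without version. Fold rules used a pseudocount of 1, folds of 2 and 0.5 and a minimum of 1. The rRNA-depleted values times transcript length were whole multiples of 1 step (100% of untreated and 99.9993% of AS transcripts of the same version, within 0.01), which gave the reads per transcript. Reads overlapping several transcripts were counted in each. The scale corresponds to 13291958 and 11281587 reads. TPM keeps no depth. The named genes were the members, their leading rRNA-depleted transcripts, G3BP1 and G3BP2, at most 3 related genes called at each end of a comparison and the 5 nearest profiles. TXNRD1 and NFE2L2, and other genes of the lists outside that rule, were named after their values were seen.

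eCLIP values were compared as deposited with limma 3.58.1 in R 4.3.3 over genes above 0 in at least 2 libraries, at an adjusted p of 0.05. The protein difference had treatment as a covariate. Poisson and binomial intervals were at 95% and cover counting error only. Other steps used Python 3.11.15 with Biopython 1.88, matplotlib 3.10.9, scipy 1.17.1, pandas 2.3.3 and numpy 2.4.6. Rules and fits were tested on simulated data. With equal library totals the eCLIP fit recovered most genes given a large change. With totals as unequal as the real ones the fit on values as deposited recovered almost none, while the fit scaled to equal totals recovered most but made many false calls when the change was largest. Alternatives covered pseudocounts, folds, minimums, rescaling, the transcript used, the replicate block and leaving out each eCLIP replicate.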

Additional observations from a re-analysis of the deposited data

How the results depend on the processing

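The number of the 9 or 10 genes called kept its value, or moved from 8 to 9 for SG against Total, in all 61 alternatives run. It was 9 with fold thresholds of 1.5 and after rescaling, when PRDX3 was also SG-depleted. Not all of these runs could differ. With a pseudocount of 1, a fold above 2 already needs a value above 1, so dropping the minimum changed nothing. The eCLIP fits on values as deposited repeat a count of 0 that says little, as stated above. Fits scaled to equal totals also called 0 of these genes. On simulated data for G3BP1 such a fit recovered most changed genes, but made many false calls when the change was largest. Rescaling SG to a median ratio of 1 moved the related genes from 16 to 9 SG-enriched and from 9 to 15 SG-depleted. In the eCLIP fits 0 of the 9 genes were called with each replicate left out in turn (0 to 0 over 24 fits) and in the other 16 fits. In these fits the smallest adjusted p among them was 0.270 to 1.00 and 0.292 to 1.00, and the number of all genes called was 0 to 12 and 0 to 6, against 0 to 2 in the fits reported. A fit that left out 1 library assumed that the lone library of its group varied like the others. With the replicate block 0 of the 9 genes were called for G3BP1, for G3BP2, for the interaction and for the difference between the proteins. The replicate number is all that the labels share, and the deviations of equally numbered libraries correlated across genes at 0.0884 to 0.55 between groups, so the pairing is not shown by the design. For G3BP1, 139 genes had a higher and 341 a lower value in AS at an unadjusted p under 0.05 with the block, and 16 and 30 without it. PRDX6 was higher in AS in all 9 fits for each protein, by 0.01 to 0.71 (G3BP1) and 0.53 to 1.64 (G3BP2) on the log10 scale. These fits reuse the same libraries and are not separate support. The block, and dropping the filter on values of 0, left the change at 0.36 (G3BP1) and 1.085 (G3BP2). Without replicate 2 of untreated G3BP1 the change of PRDX6 was 0.01, and without replicate 1 of AS G3BP1 it was 0.07.

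Over all genes, calls in siG3BP1 went from 138 higher and 243 lower to 289 and 425 with a pseudocount of 0.1 and to 455 and 765 with a fold of 1.5. In siG3BP2 they went to 273 and 638 and to 418 and 1186, from 150 and 353. In Total against siCtrl 156 genes were called higher, 272 with a pseudocount of 0.1, and with a fold of 1.5 the calls were 498 and 4803. Single libraries per RNA-seq condition and eCLIP numbers near 0 limit what these data can show.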
